A study of Mus musculus with 8 samples.

Results

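The sperm glycolysis isozymes are 10 genes of the glycolytic pathway, chosen by symbol from a table of 23983 mouse genes, with no threshold on their values. They comprise the germ cell forms Gapdhs, Ldhc and Pgam2, their general counterparts Gapdh, Ldha, Ldhb and Pgam1, and the hexokinase, aldolase and enolase genes Hk1, Aldoa and Eno1. All 10 symbols had a row in the table, and all 10 passed a filter of a mean of at least 1 FPKM (fragments scaled to transcript length in kilobases and to library size) over the libraries. RNA-seq was made from pieces of unsorted testis of wild-type C57BL/6J mice at 12, 16 and 24 days after birth (d12, d16, d24) and in the adult, with 1 library per stage, no treatment and no transgene. The adult age and the number of animals behind a library are not given in the sources used here. H3K27Ac ChIP-seq of the same 4 stages was not analysed here. Because a stage had a single library, no test between stages was possible, and the intervals below are exact 95% intervals that cover the counting error of fragments only, not the spread between animals.

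Glycolysis splits glucose into pyruvate, and lactate dehydrogenase interconverts pyruvate and lactate. Sperm carry glycolytic enzymes along the principal piece of the tail, many of them bound to the fibrous sheath, and in the mouse this pathway is needed for motility. Several of its steps are run there by isozymes made only or mainly in germ cells: Gapdhs is the sperm glyceraldehyde-3-phosphate dehydrogenase with an extra proline-rich stretch at its start, Ldhc is the testis subunit of lactate dehydrogenase, and Pgk2, a retrogene, stands in for the X-linked Pgk1. In a developing testis the first wave of spermatogenesis adds meiotic cells, then round spermatids, then elongating spermatids.

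The 4 libraries differed in scale. The FPKM values summed to 283580 at d12, 307964 at d16, then 472726 at d24 and 659202 in the adult. Factors that bring the median gene of the libraries to the same level were 0.984 to 0.993, so the deposited values already lay on that scale, and rescaling to the same FPKM sum or upper quartile departs from it. The low values of 14603 genes with a single curated transcript fell on whole multiples of a per-fragment unit. Of their values up to 20 fragments, 91.5% to 92.4% lay within 0.05 of a whole number. This unit gave the fragments behind each value. Among the members only Pgam1 and Pgam2 have a single curated transcript, so the fragments of the others are estimates that this check does not cover. The summed level of 6 pachytene spermatocyte markers was 75.1 FPKM at d12, 666.6 at d16, then 2133 at d24 and 2288 in the adult, that of 6 round spermatid markers was 3.54, 14.8, 471.4 and 1105, and that of 6 elongating spermatid markers was 13.2, 4.45, 2363 and 26392. The elongating spermatid sum was thus lower at d16 than at d12, where it exceeded that of the round spermatid markers. From d12 to the adult the sum of 6 Sertoli cell markers went from 180.6 to 63.0 FPKM, of 6 spermatogonial markers from 198.0 to 37.8, of 6 early meiotic markers from 782.6 to 863.7, of 6 Leydig cell markers from 131.6 to 580.7 and of the 5 red blood cell markers in the table from 263.4 to 65.1. The 6 epididymis markers summed to at most 2.28 FPKM. In unsorted tissue, a lower level cannot be told apart from a smaller share of the cells that make the transcript.

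Lactate dehydrogenase had changed its main subunit by d16. Ldhc (chr7:46861263-46878147, plus strand, GRCm38) measured 5.24 FPKM at d12, 389.2 at d16, then 2267 at d24 and 2769 in the adult. It ranked 7787 from the top of the table at d12, 62 at d16, then 4 at d24 and 11 in the adult. The level rose 74.3-fold from d12 to d16 (interval 60.0 to 93.0) and 5.82-fold from d16 to d24 (5.68 to 5.98). The adult value was 1.22 times that of d24, or 0.876 times when the libraries were rescaled to the same FPKM sum. Ldha (chr7:46842274-46855627, plus strand), the muscle-type subunit made in most tissues, measured 18.3 FPKM at d12, 80.1 at d16, then 411.2 at d24 and 455.9 in the adult. It rose 4.39-fold (3.90 to 4.95) and then 5.13-fold (4.87 to 5.42), and the last step was 1.11 times as deposited, 0.795 times at the same FPKM sum and 0.928 times with upper-quartile scaling. Ldhb (chr6:142490249-142507957, minus strand), the heart-type subunit, went the other way, with 182.2 FPKM at d12, 128.3 at d16, then 68.1 at d24 and 50.9 in the adult, an adult level 0.279 times that at d12 (0.254 to 0.306).

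Within each library, where the scaling between libraries has no part, Ldhb made up 88.6% of the summed FPKM of the 3 subunits at d12, 21.5% at d16, then 2.48% at d24 and 1.55% in the adult. The share of Ldhc was 2.55% at d12, 65.1% at d16, then 82.5% at d24 and 84.5% in the adult. Ldha held between 8.88% and 15.0% throughout. The ratio of Ldhc to Ldha was 0.287 at d12, 4.86 at d16 (4.59 to 5.14), 5.51 at d24 (5.41 to 5.62) and 6.07 in the adult (5.91 to 6.24), while Ldhc to Ldhb went from 0.0288 to 3.03, 33.3 and 54.4. The intervals of Ldhc to Ldha at d16, d24 and adult do not overlap, but they leave out any error from sequence that Ldha shares with other genes. The further lactate dehydrogenase gene Ldhal6b, outside the 10, measured 2.49, 97.8, 493.9 and 614.7 FPKM in the same order of stages and stayed at 0.218 to 0.251 of Ldhc from d16 on.

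**Figure D1:**
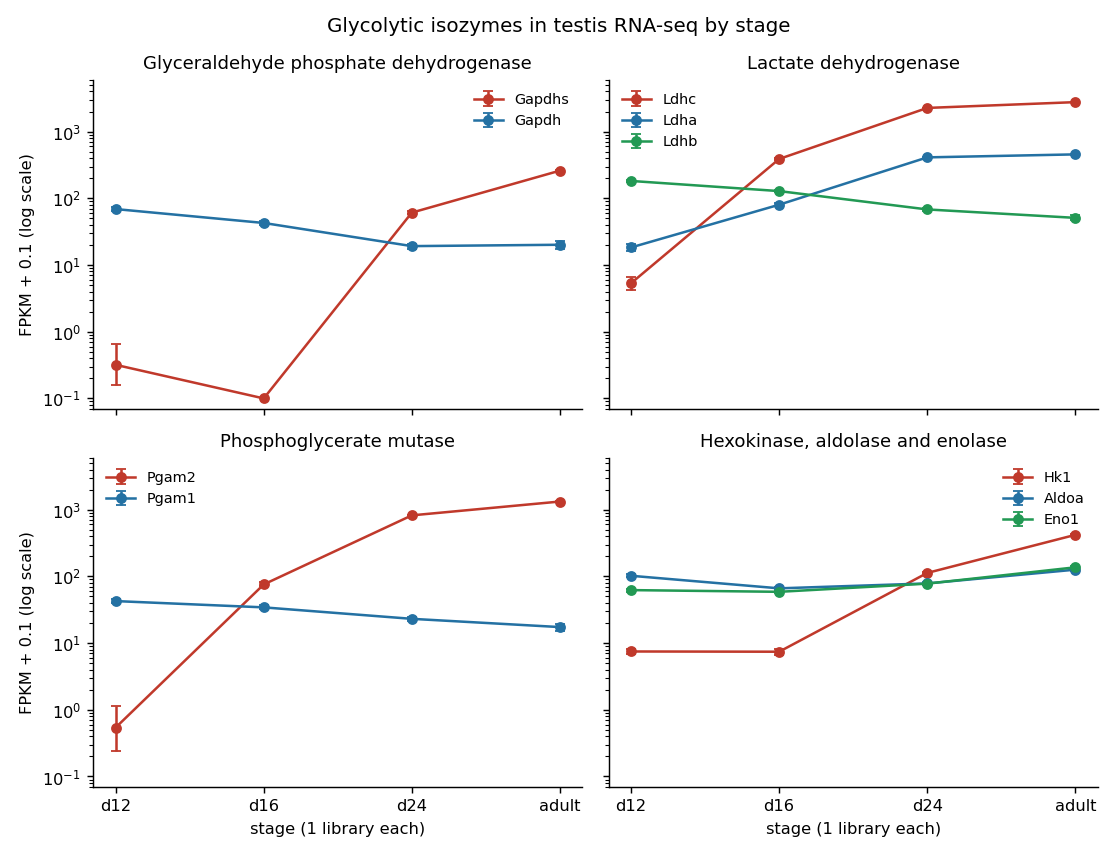
FPKM + 0.1 on a log axis against stage, in 4 panels, with 1 library per stage and bars for the exact 95% counting interval. Ldhc and Pgam2 are already high at d16, while Gapdhs and Hk1 climb between d16 and the adult. Gapdhs at d16 is listed at 0 and is drawn at 0.1.

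Ldha and Ldhc are neighbours on chromosome 7, head to tail on the same strand with 5635 bases between the annotated end of Ldha and the first annotated start of Ldhc. Annotation places 1 other gene in that gap, at least in part. Both neighbours rose from d12 to d16, but Ldhc by 74.3-fold and Ldha by 4.39-fold. The 250 bases before the most upstream start that each gene has among the RefSeq promoter windows used (GRCm38.p6) are printed here. Matches to any of 6 motifs are in capitals, searched on both strands as TGACGTCA (the cyclic AMP response element), TGACG (its first part, so that every match to the first also counts here), GGGCGG (the GC box), TATAAA (the TATA box), ACGTG (the core of the hypoxia response element) and AACTG (the MYB core). The search covered a 300-base window that ran from 250 bases before to 50 after the start. The Ldhc sequence lies at chr7:46861013-46861262 and that of Ldha at chr7:46845554-46845803, both on the plus strand. For Ldha the annotated gene begins farther upstream than this start.
Ldhc: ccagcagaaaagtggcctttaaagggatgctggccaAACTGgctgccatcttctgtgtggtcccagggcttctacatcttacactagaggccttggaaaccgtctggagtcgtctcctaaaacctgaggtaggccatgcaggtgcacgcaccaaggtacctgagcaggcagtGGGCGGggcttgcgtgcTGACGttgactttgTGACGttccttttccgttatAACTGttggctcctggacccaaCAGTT
Ldha: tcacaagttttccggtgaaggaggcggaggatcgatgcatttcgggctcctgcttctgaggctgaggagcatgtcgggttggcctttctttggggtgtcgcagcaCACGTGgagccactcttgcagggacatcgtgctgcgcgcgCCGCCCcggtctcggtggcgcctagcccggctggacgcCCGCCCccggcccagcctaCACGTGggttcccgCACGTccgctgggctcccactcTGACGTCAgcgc
The Ldhc window held TGACG at -61 and -47, GGGCGG at -78 and AACTG at -214, -27 and, on the other strand, -5. That of Ldha held TGACGTCA at -12, which contains TGACG on each strand, with GGGCGG in 3 places and 5 matches to ACGTG. These 5 include CACGTG sites, each of which matches ACGTG on both strands. Positions count from the annotated start and give the left end of a match. TGACGTCA was present in 1.79% of all 32851 RefSeq promoter windows of this length, TGACG in 20.8%, GGGCGG in 35.7%, TATAAA in 13.6%, ACGTG in 19.6% and AACTG in 44.8%. Among the 18 windows of the 10 genes, TGACGTCA occurred in 1, that of Ldha, and TATAAA in none. A match to these letters is not evidence of binding. The Ldhc window had 9 CG pairs and the Ldha window 30, against a median of 7 over all windows (quartiles 3 and 20).

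Phosphoglycerate mutase made a similar switch, also by d16 in the listed values. Pgam2 (chr11:5801637-5803796, minus strand) encodes the muscle subunit and is also the form of the testis. It measured 0.441 FPKM at d12 (5 fragments), 75.6 at d16, then 821.3 at d24 and 1324 in the adult. From d12 to d16 it rose 171.5-fold, with a wide interval of 73.2 to 529.6 that comes from the 5 fragments at d12. It rose 10.9-fold from d16 to d24 (10.1 to 11.7) and was 1.61 times higher in the adult than at d24 (1.57 to 1.65). Pgam1 (chr19:41911871-41918665, plus strand), the subunit of most other tissues, measured 42.5, 34.2, 23.0 and 17.3 FPKM in the same order, an adult level 0.406 times that at d12 (0.355 to 0.464). The ratio of Pgam2 to Pgam1 was 0.0104 at d12 (0.00336 to 0.0243), 2.21 at d16 (2.00 to 2.44), 35.7 at d24 (33.4 to 38.2) and 76.7 in the adult (68.1 to 86.6). Because Pgam2 is the muscle form, 6 skeletal muscle markers were summed beside it: 3.88 FPKM at d12, 2.78 at d16, then 2.64 at d24 and 0.819 in the adult, where 3 of the 6 were listed at 0.

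The sequence before the single listed Pgam2 start lies at chr11:5803797-5804046 on the minus strand. It is shown because Pgam2 had the largest listed change from d12 to the adult among the 10. That ratio was 3004 (1287 to 9255), and for Gapdhs it was 1187 (463.2 to 4359), so their intervals overlap. The same motifs are in capitals.
Pgam2: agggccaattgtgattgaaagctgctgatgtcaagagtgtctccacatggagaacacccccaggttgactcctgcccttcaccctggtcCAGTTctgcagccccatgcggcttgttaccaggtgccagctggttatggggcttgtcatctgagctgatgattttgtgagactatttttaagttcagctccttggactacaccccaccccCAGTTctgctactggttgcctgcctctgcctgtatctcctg
Its 300-base window held 4 matches to AACTG, at -161, -41 and 14 on the other strand and at 42 on the gene's own strand, none to the other 5 motifs, and 1 CG pair. The window of Pgam1 held 30 CG pairs, 2 GGGCGG matches, 1 of ACGTG and 1 of AACTG.

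Glyceraldehyde-3-phosphate dehydrogenase switched later. Gapdhs (chr7:30729779-30744791, minus strand, 11 exons) measured 0.219 FPKM at d12 (4 fragments, 0.0597 to 0.561), was listed at 0 at d16, where 3 fragments would be 0.165 FPKM, and reached 61.0 FPKM at d24 and 260.0 in the adult. It was at least 370.5-fold higher at d24 than at d16, taken from 3 fragments in the d16 library, and rose a further 4.26-fold from d24 to the adult (4.03 to 4.51). The difference between 4 fragments at d12 and none at d16 lies within counting error, although it counts as a fall on the FPKM + 0.1 scale. The summed elongating spermatid markers were also lower at d16 than at d12, as given above, and whether this bears on the 4 Gapdhs fragments was not tested. Gapdh (chr6:125161852-125166467, minus strand), the enzyme of other cells, measured 68.9 FPKM at d12, 42.6 at d16, then 19.1 at d24 and 20.04 in the adult. It fell to 0.448 times its level from d16 to d24 (0.399 to 0.503), and the adult was at 0.291 times the d12 level (0.251 to 0.336). From d24 to the adult its ratio was 1.05 (0.894 to 1.23) as deposited, 0.752 at the same FPKM sum and 0.878 with upper-quartile scaling.

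The ratio of Gapdhs to Gapdh was 0.00318 at d12 (0.000864 to 0.00816), below 0.00386 at d16, then 3.19 at d24 (2.90 to 3.52) and 13.0 in the adult (11.3 to 14.9). The germ cell form made up 0.317% of the pair at d12, 76.1% at d24 and 92.8% in the adult. The summed level of the pair was 69.1 FPKM at d12, 42.6 at d16, then 80.1 at d24 and 280.0 in the adult, with the lowest total at d16. The totals of hexokinase (31.8 to 27.6 FPKM), aldolase (104.7 to 67.9) and Gpi1 (19.8 to 15.6) were also lower at d16 than at d12. Tpi1 (11.1 to 10.6) differed by less than counting error (ratio 0.957, 0.782 to 1.17). In the same order of stages the summed levels were, for the mutase pair, 42.9, 109.8, 844.3 and 1341 FPKM, and for the 3 dehydrogenase subunits 205.7, 597.7, 2746 and 3275 FPKM.

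**Figure D2:**
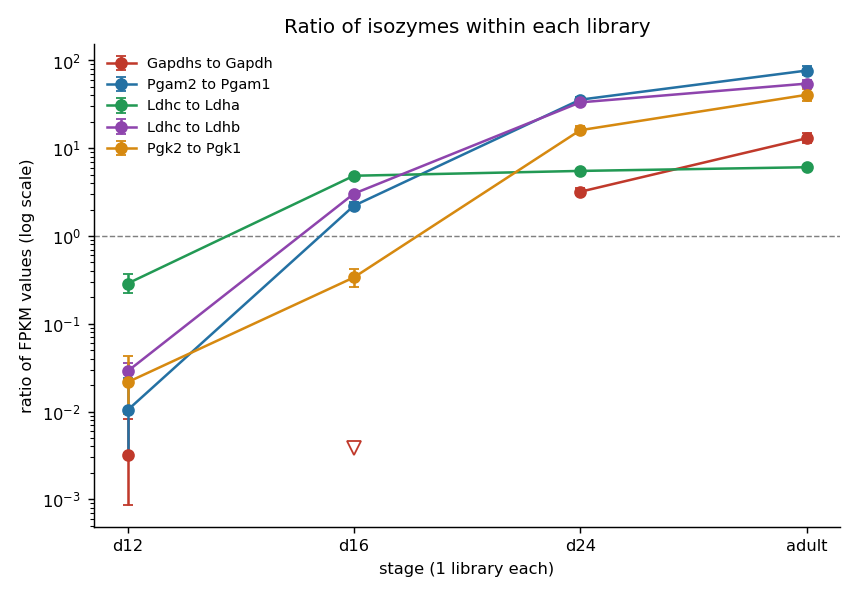
Ratio of FPKM values of isozyme pairs within each library on a log axis against stage, with exact 95% counting intervals and a dashed line at equal levels. Ldhc and Pgam2 exceed their counterparts from d16, and Gapdhs and Pgk2 from d24. The open triangle is the upper limit for Gapdhs to Gapdh at d16, from 3 fragments.

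Gapdhs has 2 starts among these windows, 4274 bases apart, and the sequence before the upstream start, at chr7:30743682-30743931 on the minus strand, is printed to set beside those of Ldhc and Pgam2. As for Ldha, the annotated gene begins farther upstream than the start used, so the printed bases lie inside it.
Gapdhs: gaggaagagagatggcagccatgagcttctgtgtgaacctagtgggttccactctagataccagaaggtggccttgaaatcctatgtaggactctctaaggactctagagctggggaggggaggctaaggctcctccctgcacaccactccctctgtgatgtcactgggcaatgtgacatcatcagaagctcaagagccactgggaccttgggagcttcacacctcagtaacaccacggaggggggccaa
None of the 6 motifs matched in these 250 bases. The part of the window after the start held TGACG at 39 and ACGTG at 36 and 41. This window had 4 CG pairs and that of the other start 1, and the windows shared an identical run of 107 bases. The single Gapdh window had 12 CG pairs.

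Hk1, like Gapdhs, rose only after d16. Hexokinase phosphorylates glucose, the entry to the pathway, and Hk1 (chr10:62268855-62379920, minus strand) has a germ cell form that is bound to the sperm fibrous sheath. It measured 7.38 FPKM at d12, 7.32 at d16, then 112.5 at d24 and 419.0 in the adult. The d12 and d16 values differed by less than counting error (ratio 0.992, 0.857 to 1.15). The level rose 15.4-fold from d16 to d24 (13.9 to 17.1) and 3.73-fold from d24 to the adult (3.63 to 3.82). At d12 the leading hexokinase was Hk2, the form of insulin-sensitive tissues, at 24.1 FPKM, followed by 20.1 at d16, then 11.04 at d24 and 9.01 in the adult. Hk1 accounted for 23.2% of the summed FPKM of 5 hexokinases at d12, 26.5% at d16, then 90.4% at d24 and 97.3% in the adult. The table holds 1 value per gene, so the germ cell and general transcripts of Hk1 are not separated.

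Hk1 has 2 such starts 39487 bases apart, and the windows differ in base composition, with 1 CG pair at the upstream start and 20 at the downstream start. Both are printed for that contrast, at chr10:62379909-62380158 and chr10:62340422-62340671, on the minus strand.
Hk1, upstream start: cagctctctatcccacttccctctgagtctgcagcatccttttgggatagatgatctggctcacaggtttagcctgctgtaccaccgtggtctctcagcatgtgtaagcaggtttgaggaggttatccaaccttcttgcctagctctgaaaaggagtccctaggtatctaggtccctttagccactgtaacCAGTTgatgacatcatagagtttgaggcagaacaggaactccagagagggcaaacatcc
Hk1, downstream start: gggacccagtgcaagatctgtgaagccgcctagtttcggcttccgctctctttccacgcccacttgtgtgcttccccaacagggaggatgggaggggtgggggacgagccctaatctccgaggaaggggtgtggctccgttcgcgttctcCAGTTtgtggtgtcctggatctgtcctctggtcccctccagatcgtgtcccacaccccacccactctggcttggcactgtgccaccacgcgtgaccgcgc
Each held 1 match to AACTG on the other strand, at -59 and at -100, and the downstream window also held ACGTG at 8 and 17, after the start. Which start the testis transcripts used was not measured in these values.

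Aldoa and Eno1 were the members with the smallest changes from d12 to the adult as deposited. Aldoa (chr7:126795234-126800994, minus strand), the aldolase of muscle and most other tissues, measured 102.0 FPKM at d12, 66.0 at d16, then 78.2 at d24 and 126.0 in the adult. No step passed 2-fold, and the adult level was 1.24 times that of d12 as deposited but 0.532 times at the same FPKM sum and 0.648 times with upper-quartile scaling. Its share of the aldolases was 97.4% at d12, 97.2% at d16, then 64.4% at d24 and 45.1% in the adult, as the retrogenes Aldoart1 and Aldoart2 appeared beside it. Aldoart1 was listed at 0 at d12 and d16 and measured 15.5 FPKM at d24 and 58.1 in the adult, and Aldoart2 measured 0, 0.0946, 26.4 and 94.0 FPKM. Eno1 (chr4:150236708-150248879, plus strand), the general enolase, measured 62.1, 58.6, 77.7 and 136.5 FPKM. Its rise of 2.197-fold from d12 to the adult (2.05 to 2.35) passed 2-fold as deposited, was 1.15-fold with upper-quartile scaling and turned to 0.945 at the same FPKM sum. The near-identical gene Eno1b measured 63.9, 58.4, 77.8 and 143.4 FPKM, with Eno1 at 0.952 to 1.00 times its level, and the summed level of both was 2.22 times higher in the adult than at d12. Eno4, an enolase of sperm, measured 1.12, 4.92, 21.5 and 31.1 FPKM.

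**Figure D3:**
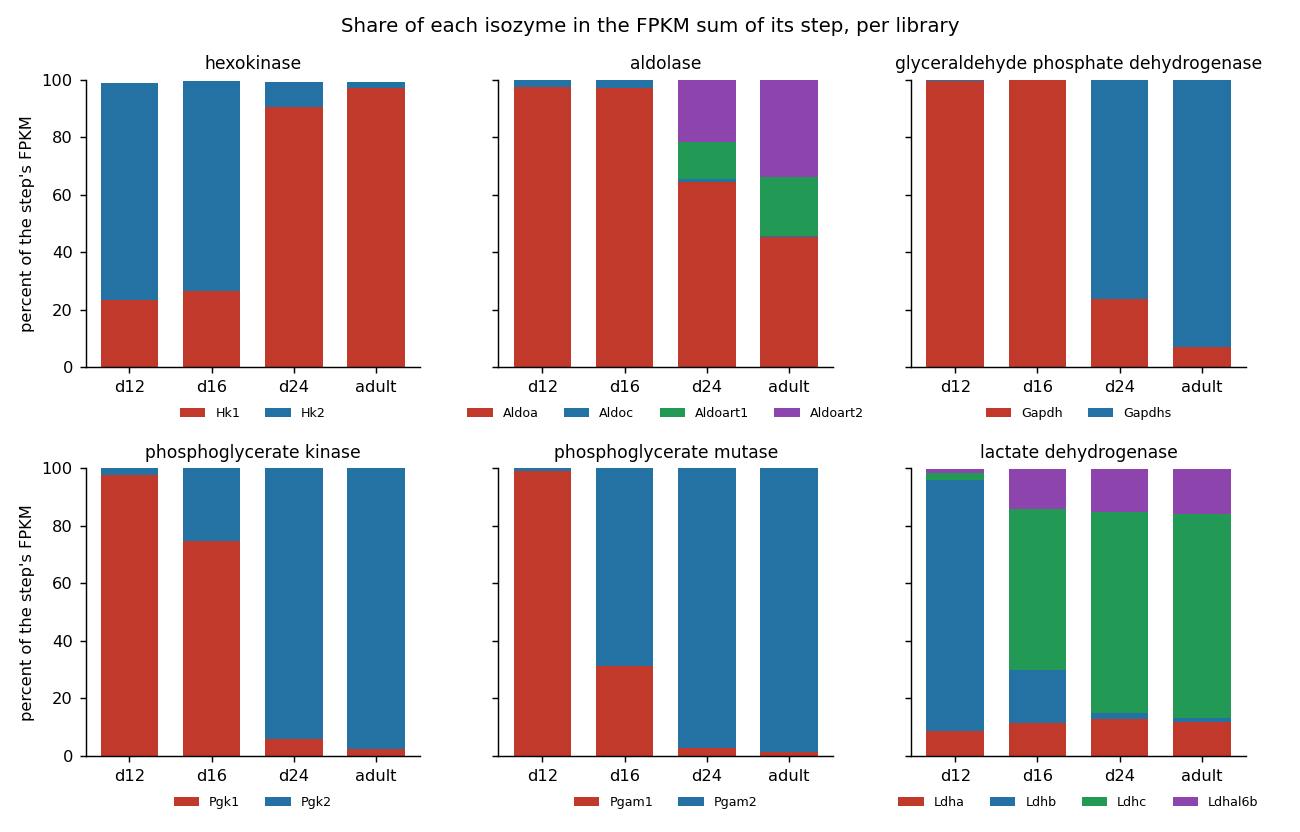
Share of each isozyme in the summed FPKM of its glycolytic step, as stacked bars from 0 to 100% for the 4 stages, with isozymes that reach 1% in some library. The germ cell isozyme takes over at d16 for phosphoglycerate mutase and lactate dehydrogenase and at d24 for glyceraldehyde phosphate dehydrogenase.

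The members were counted against the 13901 genes that passed the filter, with a change called at 2-fold on FPKM + 0.1. From d12 to d16, 3 of the 10 rose (Ldhc, Ldha, Pgam2), against 12.6% of all genes, and 1 fell (Gapdhs, on 4 fragments), against 3.67%. From d16 to d24, 5 rose (Gapdhs, Ldhc, Ldha, Hk1, Pgam2), against 27.5%, and 1 fell (Gapdh), against 8.45%. From d24 to the adult, 2 rose (Gapdhs and Hk1), against 11.4%, and none fell, against 2.2%. Over the whole course from d12 to the adult, 6 rose, against 35.7%, and 3 fell (Gapdh, Ldhb, Pgam1), against 23.1%, which leaves Aldoa alone within 2-fold. With 10 genes picked by name, these shares are a description. The median change of the members on the log2(FPKM + 0.1) scale was -0.20, 1.38, 0.49 and 2.88 for the 4 comparisons, where the median of all genes was 0.00, 0.13, -0.02 and 0.20. At the same FPKM sum, which shifts d16 to d24 by -0.62 in log2 and d12 to the adult by -1.22, the count among the members was 5 up and 3 down in both of these comparisons. All genes turned from 3824 up and 1174 down to 2690 and 4203 from d16 to d24, from 1578 and 306 to 921 and 1390 from d24 to the adult, and from 4965 and 3216 to 3220 and 6934 from d12 to the adult.

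The order of levels among the 10 was rebuilt between d12 and the adult. At d12 the leading gene was Ldhb, followed by Aldoa, Gapdh, Eno1 and Pgam1, and Ldhc, Pgam2 and Gapdhs stood at the end. Pgam2 and Gapdhs could not be ordered at d12, since the interval of their ratio ran from 0.433 to 10.1. In the adult the order was Ldhc, Pgam2, Ldha, Hk1, Gapdhs, Eno1, Aldoa, Ldhb, Gapdh and Pgam1, of which only Gapdh and Pgam1 could not be ordered (ratio interval 0.970 to 1.39). The same held for Ldha and Pgam2 at d16 (0.974 to 1.15) and for Aldoa and Eno1 at d24 (0.954 to 1.06). Together the 10 genes made up 0.173% of all FPKM at d12, 0.286% at d16, then 0.833% at d24 and 0.846% in the adult.

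The 5 members with steep rises were each set against their own adult level. At d16, Ldha stood at 17.6% of its adult level, Ldhc at 14.1%, Pgam2 at 5.71%, Hk1 at 1.75% and Gapdhs at 0. At d24, Ldha stood at 90.2%, Ldhc at 81.9%, Pgam2 at 62.0%, Hk1 at 26.8% and Gapdhs at 23.4%. The pachytene markers had a median of 28.8% at d16 (4.11% to 57.0%) and 99.7% at d24 (80.5% to 122.5%), the round spermatid markers 0.286% (0% to 8.35%) and 43.2% (33.7% to 78.2%), and the elongating spermatid markers 0.0165% (0.00364% to 0.0216%) and 12.6% (5.72% to 17.6%). At d24 Ldha and Ldhc lay inside the range of the pachytene markers, Pgam2 inside that of the round spermatid markers, and Hk1 and Gapdhs between the ranges of the round and the elongating spermatid markers. The early meiotic markers (74.95% to 141.3% at d24) also took in Ldha and Ldhc. The spermatogonial markers (48.8% to 242.4% at d24) took in Ldha, Ldhc and Pgam2. The Leydig cell markers took in Pgam2, Hk1 and Gapdhs at d24 (18.6% to 73.4%), and Ldha, Ldhc and Pgam2 at d16 (5.60% to 64.2%). The Sertoli cell markers (102.7% to 222.5% at d24) took in none of them. A place inside a range is therefore not particular to a cell type. At d16 the ranges overlapped, with Ldha, Ldhc and Pgam2 inside the pachytene range, and Pgam2, Hk1 and Gapdhs inside that of the round spermatid markers. These percentages depend on the scaling between libraries, while their order within a stage does not.

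**Figure D4:**
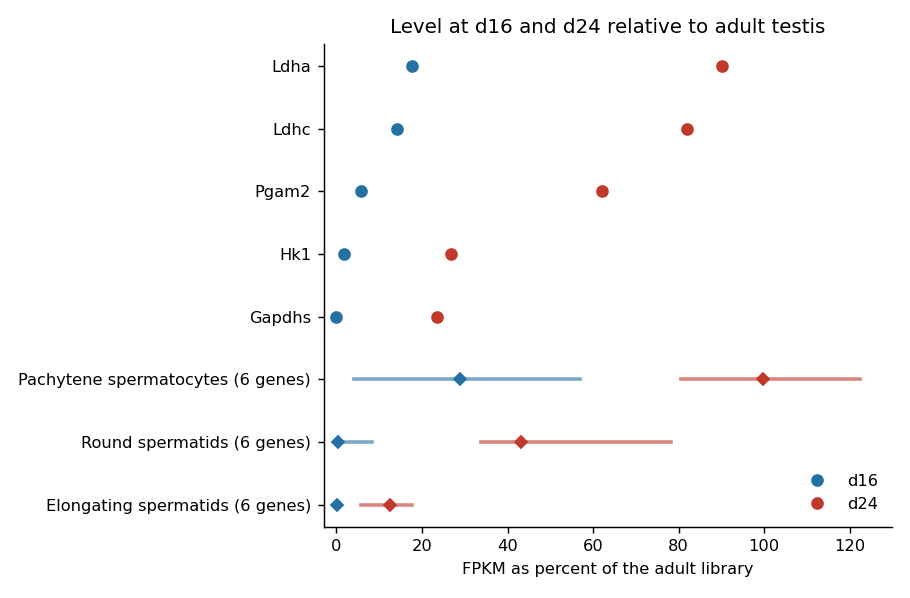
Level at d16 (blue) and d24 (red) as a percentage of the adult level, for the rising members as dots and for 3 sets of 6 marker genes as a median (diamond) and range (line). Ldhc and Ldha lie with the pachytene markers at d24, and Hk1 and Gapdhs lie below the round spermatid range. Marker sets that are not drawn, among them those of Leydig cells and spermatogonia, also span some of these levels.

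The nearest genes in time course were sought over the 4 libraries as the smallest Euclidean distance of centred log2(FPKM + 0.1) values, which is a description of 4 points. For Gapdhs they were Erich3 (distance 0.16), Tuba8 (0.24) and Ropn1 (0.27), with Ropn1 at 0.189, 0, 64.8 and 216.4 FPKM. For Ldhc they were Gm6455 (0.20), Prps1l1 (0.25), a testis phosphoribosyl pyrophosphate synthetase, and Cpt1b (0.25), a carnitine palmitoyltransferase. For Ldha they were Poll and Zpbp (both 0.09) and Ccdc92 (0.17), and for Pgam2 they were Pebp4 (0.27), Tcp10c (0.30) and Tcp10b (0.37). Among the members, Pgam2 was the nearest to Ldhc at a distance of 1.73, in place 196 among all genes, followed by Ldha at 3.67 in place 775. Seen from Ldha, Ldhc was in place 6349, behind Hk1 in place 2395 and Eno1 in place 4582. Gapdh lay at 11.04 from Gapdhs.

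Of the 23 other glycolysis genes listed, 17 passed the filter. From d12 to the adult 11 of them rose and 3 fell (Aldoc, Hk2 and Pfkl), against 35.7% up and 23.1% down of all genes. By step, 4 rose from d12 to d16 (12.6% of all genes), 8 from d16 to d24 (27.5%) and 4 from d24 to the adult (11.4%). None fell in a single step, against 3.67%, 8.45% and 2.2% of all genes. At the same FPKM sum 8 rose and 5 fell over the whole course, where 3220 of the 13901 genes rose and 6934 fell. From d16 to d24 at that sum 5 fell, as did 4203 of the 13901 genes, a similar share. With upper-quartile scaling 9 rose and 4 fell over the whole course, where 3543 of all genes rose and 6089 fell. Pgk2 measured 0.401, 4.77, 157.2 and 388.9 FPKM, and its ratio to Pgk1 was 0.0216, 0.337, 16.04 and 40.6, a switch at d24 as for Gapdhs. Gpi1, which has no listed isozyme, measured 19.8, 15.6, 21.4 and 93.0 FPKM. It rose 4.35-fold from d24 to the adult (4.07 to 4.65), a step in which Gapdhs and Hk1 also rose. Unlike them it changed little from d16 to d24, with a ratio of 1.37 (1.24 to 1.51), or 0.891 at the same FPKM sum. Tpi1, also alone at its step, measured 11.1, 10.6, 31.2 and 60.2 FPKM. Among the phosphofructokinases Pfkm (11.4 FPKM) and Pfkl (10.8 FPKM) could not be ordered at d12, and Pfkp led in the adult (66.8 FPKM). Pkm held 99.8% or more of pyruvate kinase, at 117.1, 98.3, 70.5 and 116.1 FPKM.

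Genes on either side of the pathway were counted in the same way, against 35.7% up and 23.1% down of all genes from d12 to the adult. At the same FPKM sum 3220 of the 13901 genes rose and 6934 fell. Of 11 glucose and lactate transport genes 9 passed the filter, and 5 rose and 2 fell from d12 to the adult, or 3 and 3 at the same FPKM sum. The largest rise among them was Slc2a5, a fructose transporter, at 0.232, 9.15, 142.2 and 180.1 FPKM, and the largest fall was Slc2a1, the general glucose transporter, at 5.93, 4.54, 2.88 and 2.18 FPKM. Of 17 genes of pyruvate entry and control of flux 15 passed, and 9 rose and 2 fell, or 5 and 3 at the same FPKM sum. The largest rise was Pdha2, the retrogene of the X-linked Pdha1, at 7.67, 63.7, 138.6 and 164.4 FPKM, with Pdha1 at 21.3, 12.8, 6.35 and 6.25, and the largest fall was Pdk1, a kinase that inhibits pyruvate dehydrogenase, at 12.8, 8.96, 4.70 and 2.90 FPKM.

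The members differ in how far their sequence is their own, which limits what a level means. Every stretch of 50 bases, the read length, in the longest curated transcript was looked up in the genome. No stretch of Gapdhs, Ldhc or Pgam2 occurred elsewhere, and 0.0487% of those of Hk1 did. The share was 14.4% for Aldoa, 28.3% for Ldha, 33.6% for Ldhb, 75.7% for Eno1, 85.7% for Gapdh and 91.8% for Pgam1. Stretches of Gapdh matched 261 other annotated genes, and 88.9% of those of Pgam1 were also in Pgam1-ps2. The share was also high for Eno1b (88.9%) and Pgk1 (92.9%). The levels of Gapdh, Pgam1, Eno1, Eno1b and Pgk1, and the ratios taken against them, are therefore uncertain in a way that those of Gapdhs, Ldhc and Pgam2 are not. The same holds, over a smaller part of the sequence, for Aldoa, Ldha and Ldhb, and so for the ratios and shares of Ldhc. How the counting placed such fragments was not tested. On the other strand, Sbsn overlaps Gapdhs, Gm39011 overlaps Ldha and Hk1os overlaps Hk1. The libraries kept strand, while the sources used here do not say whether counting used it.

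**Figure D5:**
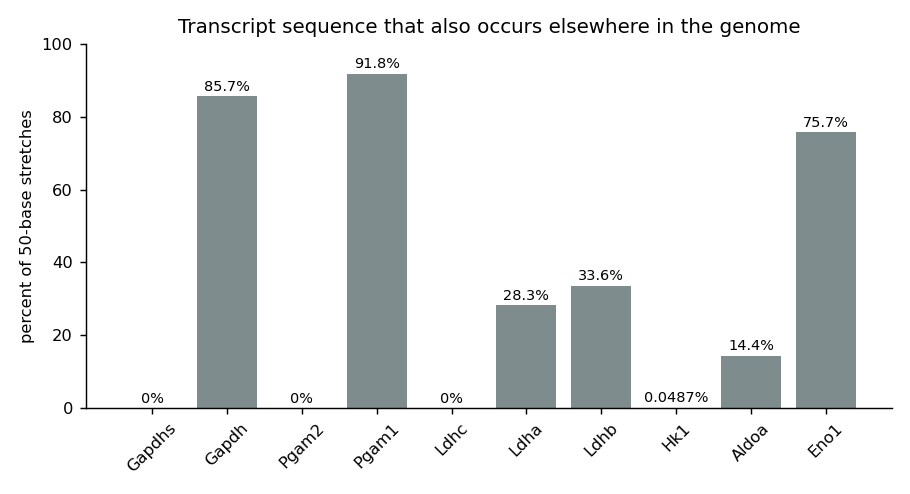
Percentage of the 50-base stretches of each member's transcript that also occur elsewhere in the genome, as bars from 0 to 100%. Gapdhs, Ldhc and Pgam2 are at 0, while Gapdh and Pgam1 exceed 85%.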

How the data were processed

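RNA-seq of 4 testis libraries, 1 per stage, was analysed. The values are FPKM per gene, calculated by the authors with Cuffdiff of Cufflinks 2.2.1 from fragments mapped with TopHat2 2.1.0 and Bowtie 1.1.2 to GRCm38 (mm10) with RefSeq genes. Libraries were strand-specific with paired reads of 50 bases, and the mapper reported a single position per read. Mapping was set to the second-strand library type. For Cuffdiff the stated options are multi-read and bias correction without effective length correction, and neither a scaling method nor a strand setting is named for it. No count table was used here.

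Gene models, promoter windows and genome matches were taken from RefSeq. Fragments behind a value were recovered from the smallest step between low values and the shortest curated transcript, which makes the intervals wide rather than narrow. Poisson and Clopper-Pearson intervals (95%) and a floor of 3 fragments were used. Change was called at 2-fold on FPKM + 0.1 among genes whose mean over the libraries reached 1 FPKM. On simulated data, the per-fragment unit of genes with a single transcript, the calls of change and the search for nearest genes were tested. The last used a scaled copy of a gene. Intervals, shares, genome matches and motif searches were not tested in this way. Python 3.11.15, pandas 2.3.3, numpy 2.4.6 and scipy 1.17.1 were used.

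The members, pathway lists, markers and motifs were chosen with earlier results of these data known. The genes named are the 10 members, the germ cell isozymes of the fixed lists with their counterparts, the leading isozyme of each step at d12 and in the adult, the largest rise and fall of the transport and control lists, and the 3 genes nearest in time course to Gapdhs, Ldhc, Ldha and Pgam2. Pgk1, Gpi1, Tpi1 and Pkm fall under the leading isozymes. Protein sequences were not used here. Alternatives were 3 other scalings, a pseudocount of 1 FPKM, a fold of 4, no filter, fragment ratios and other denominators, with the sum of Eno1 and Eno1b added after seeing the data.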

Additional observations from a re-analysis of the deposited data

How the results depend on the processing

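Of 202 alternatives, 124 left a value within its counting interval or a count within 1.5 times, and 78 did not. The 124 include alternatives whose outcome was set in advance. Dropping the filter could change no count, since all 10 members passed it. Scaling to the median gene used factors of 0.984 to 0.993 and so could hardly move a value. Of the 118 alternatives for fold changes, 56 stayed and 62 did not. Rescaling turned the direction of 12 fold changes of members, of which 11 were within 2-fold as deposited (Gapdh, Ldhc, Ldha, Aldoa and Eno1) and 1 was past it, Eno1 from d12 to the adult, 2.197 as deposited and 0.945 at the same FPKM sum. The number of members that fell from d12 to d16 was 0 with a pseudocount of 1 FPKM and 0 at a fold of 4. From d16 to d24, 3 fell at the same FPKM sum, 3 with upper-quartile scaling and 0 at a fold of 4. Of the 13901 genes that passed the filter, 4203 fell in that step at the same FPKM sum and 3681 with upper-quartile scaling. At a fold of 4, 1 rose from d24 to the adult and 0 fell from d12 to the adult. The matching shares of all genes at a fold of 4 or a pseudocount of 1 FPKM were not computed. The counts at these settings therefore describe the members only. With a pseudocount of 1 FPKM, Gapdhs to Gapdh was 0.0174 at d12 and 0.0229 at d16, and Pgam2 to Pgam1 was 0.0331 at d12. As a share of FPKM times the mean transcript length of a gene, Ldhc was 64.1% at d16, 80.0% at d24 and 82.1% in the adult of the 3 subunits, and with Ldhal6b and Ldhd in the denominator it was 55.9%, 69.9% and 71.2%. The cause of these differences was not tested. No paired analysis was possible because each stage has 1 library. Depth limits Gapdhs and Pgam2 at d12, with 4 and 5 fragments.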
